A study of Mus musculus with 4 samples.

Results

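Axon guidance ligands and receptors, the semaphorins, plexins, neuropilins, ephrins, Eph receptors, netrins, Unc5 receptors and Slits, were examined in the perivascular adipose tissue (PVAT) of the mouse femoral artery after vascular injury. Members were taken by symbol, as every row named Sema, Slit, Robo or Ntn with a digit, or Plxna to Plxnd, Epha, Ephb, Efna, Efnb or Unc5, together with *Nrp1* and *Nrp2*. *Robo4* was left out. The rule found 50 of the 12661 genes listed. Of these, 48 encode guidance ligands or receptors, and the others are *Unc50*, a gene that shares only its first letters with the netrin receptors, and *Plxna4os1*, an antisense transcript of *Plxna4*. Robo1 to Robo3, the Slit receptors, were not analysed here.

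All mice were ovariectomized, wild type C57BL/6 females that the labels give as 11 weeks old. In the injury group a wire was inserted into the femoral artery, and the other group had a sham operation. The tissue around the vessel was taken 48 h later, and RNA-seq was performed on 2 libraries per group. The labels do not say whether the libraries came from separate animals or from pools, so a p-value here measures only the spread between libraries. The samples are whole tissue, in which fewer cells of a type and less RNA per cell cannot be told apart.

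Guidance cues were named for steering growing axons, but blood vessels, lymphatics, nerves, fat and immune cells use the same proteins. Secreted class 3 semaphorins bind neuropilins and signal through A-type plexins or plexin D1, membrane semaphorins bind plexins directly, and ephrins on one cell engage Eph receptor tyrosine kinases on its neighbour. Netrins act through DCC, neogenin and the Unc5 receptors, and Slits act through Robo receptors. In the vessel wall, ephrin-B2 marks arteries and its receptor EphB4 marks veins, neuropilin 1 is a co-receptor for VEGF, and sympathetic axons reach the outer wall under the control of these cues.

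The deposited values are signed decimals on a log-like scale, centred gene by gene on a value that is not stated. The centre is not the mean of these 4 libraries, so only differences between libraries for the same gene can be read. A value gives neither the level of a gene nor a fold change, and the depth behind it is unknown. Differences are given as the injury mean minus the sham mean in deposited units, and a gene was called at a limma adjusted p-value under 0.05 over all 12661 genes. The 4 libraries had medians between -0.00619 and -0.0028 over all genes, and the spread of values was widest in sham replicate 1 (SD 0.438) and narrowest in injury replicate 2 (SD 0.321). All 12 adipocyte markers examined had a row. Their means were higher after injury in 6 and lower in 6, with a median difference of -0.13, and 1 was called (*Plin1*, the lipid droplet coat protein, at -0.74).

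Guidance genes were mostly lower after vascular injury. With limma, 13 of the 50 members were called (26%), beside 7.43% of all genes. Of these, 11 were lower (22.0%, beside 3.67% of all genes called lower) and 2 were higher (4.0%, beside 3.76% called higher). The called genes that fell were *Ntn4*, *Ntn1*, *Sema3d*, *Sema3f*, *Sema5b*, *Epha2*, *Epha4*, *Ephb4*, *Ephb6*, *Unc5c* and *Plxna4*, and those that rose were *Plxnc1* and *Plxna1*. Both injury libraries lay below both sham libraries in 28 members, where 30.3% of all genes did so, and above them in 6, where 31.6% of all genes did so. The groups overlapped in the remaining 16. The median difference over the members was -0.43, beside 0.01 over all genes. Without adjustment, 25 of the 50 members and 3739 of the 12661 genes had p under 0.05 with limma.

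The calls changed with the libraries used. Without sham replicate 1 or without sham replicate 2, limma called 0 members, and it called 0 and 1 genes of the whole table. At an unadjusted p-value under 0.05, these fits had 20 and 25 members and 1960 and 2553 of all genes. Without injury replicate 1, it called 4 members, namely *Ntn4*, *Sema3f*, *Epha2* and, not among the 13, *Sema3a*, and 284 of all genes. Without injury replicate 2, it called 18 members and 1790 of all genes, against 941 with all 4 libraries. In these fits the lone library was assumed to vary like the other group. In all 13 called members the groups did not overlap, so leaving out a library could not reverse the direction of a difference.

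**Figure D1:**
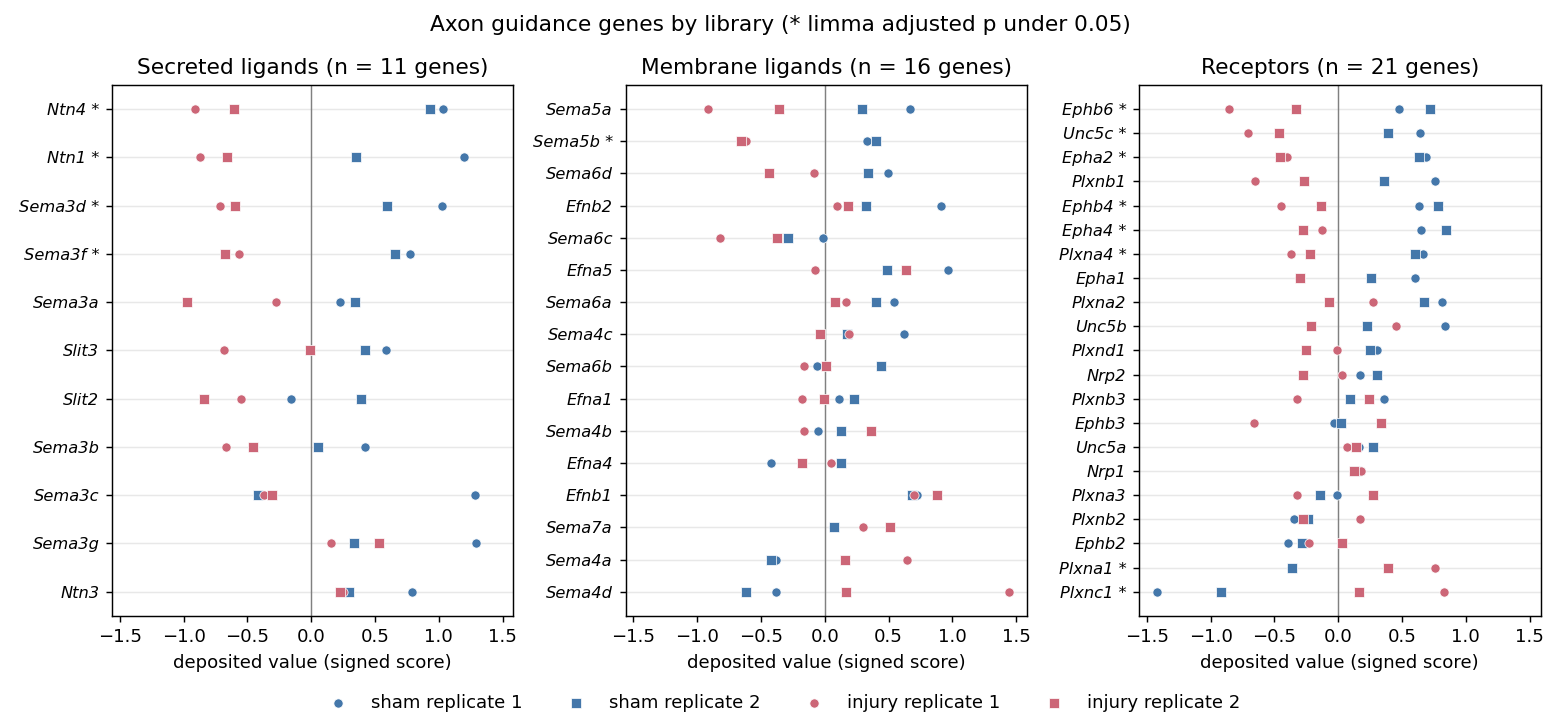
Deposited value (signed score) of each of the 48 guidance ligands and receptors in the 4 libraries, by role, ordered by the difference between groups; blue symbols are sham and red symbols injury libraries, circles replicate 1 and squares replicate 2, and asterisks mark a limma adjusted p-value under 0.05. In the 11 secreted ligands the injury symbols lie to the left of the sham symbols in 9 genes, whereas *Plxnc1* and *Plxna1* at the foot of the receptor panel have the opposite order.

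The lowest and the highest difference among the members belonged to neighbours on chromosome 10. *Ntn4* encodes netrin-4, a secreted protein of basement membranes, and *Plxnc1* encodes plexin C1, a receptor found on leukocytes that binds the membrane semaphorin encoded by *Sema7a*. In mm9, *Ntn4* lies on the plus strand at chr10:93103426-93209952 and *Plxnc1* on the minus strand at chr10:94253617-94407212. The genes are 1.04 Mb apart, with 9 protein-coding genes between them. *Ntn4* measured 1.03 and 0.93 in the sham libraries and -0.91 and -0.60 after injury. The difference of -1.74 (SE 0.16, limma adjusted p = 0.0285) ranked 63 from the lowest of all 12661 genes. For *Plxnc1* the order was turned around, with -1.42 and -0.92 in the sham libraries and 0.83 and 0.16 in the injury libraries. This difference of 1.66 (SE 0.28, limma adjusted p = 0.0355) ranked 161 from the highest of all genes. In neither gene did the groups overlap, and in *Plxnc1* the injury libraries were 0.66 apart.

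The promoter windows of these genes are shown because they stand at opposite ends of the list. Each runs over the 250 bases before the RefSeq start in GRCm38.p6, read 5′ to 3′ on the strand of the gene, chr10:93640799-93641048 on the plus strand for *Ntn4* and chr10:94944846-94945095 on the minus strand for *Plxnc1*. Capitals mark the GC box letters GGGCGG and the PU.1 core letters AGGAAG on either strand.
Ntn4: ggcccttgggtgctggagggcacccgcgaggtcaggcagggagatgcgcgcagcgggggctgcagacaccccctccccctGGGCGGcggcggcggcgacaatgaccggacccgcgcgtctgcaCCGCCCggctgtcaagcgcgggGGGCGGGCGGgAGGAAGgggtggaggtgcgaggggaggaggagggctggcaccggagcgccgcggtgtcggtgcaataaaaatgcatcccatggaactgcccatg
Plxnc1: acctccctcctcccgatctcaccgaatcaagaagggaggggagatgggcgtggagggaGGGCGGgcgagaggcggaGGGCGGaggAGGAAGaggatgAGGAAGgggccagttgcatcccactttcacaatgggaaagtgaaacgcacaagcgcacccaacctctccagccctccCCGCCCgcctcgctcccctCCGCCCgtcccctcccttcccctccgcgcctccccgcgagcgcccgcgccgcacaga
Both windows hold 4 GC boxes, and in *Ntn4* a pair of them overlap. The PU.1 core letters occur once in *Ntn4*, 94 bases before the start, and 2 times in *Plxnc1*, 165 and 153 bases before it. GC content was 73.2% and 68.8%, with 26 and 22 CpG dinucleotides, where the median over 32851 windows of this length was 52.4% and 6 CpGs.

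The RefSeq table had a window for 43 of the 50 members and 9 of the 13 called members. *Ntn1*, *Plxna1*, *Plxna4* and *Sema3f* have no entry. The GC box was present in 6 of these 9 windows, and in 32.7% of all windows. GC content ran from 46.8% (*Sema3d*) to 76.8% (*Ephb6*) in the 9, beside a median of 52.4% over all windows. The 9 were not compared with windows of like GC content or with those of the other members. The PU.1 core was present in the *Ntn4* and *Plxnc1* windows alone among the 9, and in 29.5% of all windows. The AP-1 letters TGANTCA and the TATA box letters TATAAA, searched on both strands, occurred in 0 of the 9, where 6.75% and 12.4% of all windows hold them. A match gives the presence of these letters only.

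Of the ligands and receptors grouped by role, the secreted ligands had the lowest median. All 11 had a lower mean after injury, as did 6211 of all 12661 genes, with a median difference of -0.85. Of the 11, 9 had no overlap between groups (81.8%, beside 30.3% of all genes lower without overlap). Limma called 4 of them lower (36.4%, beside 3.67% of all genes). *Ntn1*, which encodes netrin-1, the classical netrin of axon attraction and of macrophage retention, lies in mm9 at chr11:68022866-68214325. It measured 1.20 and 0.35 in the sham libraries and -0.87 and -0.66 in the injury libraries. The sham libraries of *Ntn1* differed by 0.84, and both were nevertheless above both injury libraries, with a difference of -1.54 (SE 0.29, limma adjusted p = 0.0440). *Ntn3*, the remaining netrin, differed by -0.31 and was not called (limma adjusted p = 0.362), and its difference was -0.06 without sham replicate 1. It overlaps *Tbc1d24* in part on the same strand, so that reads in the overlap can be shared.

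Class 3 semaphorins mostly repel axons and endothelial cells. All 6 had lower means after injury, 4 without overlap between groups (66.7%, beside 30.3% of all genes). *Sema3d* and *Sema3f* were called lower (33.3%, beside 3.67% of all genes). *Sema3d* (mm9 chr5:12383166-12588943) measured 1.02 and 0.59 after sham operation and -0.72 and -0.59 after injury. *Sema3f* (mm9 chr9:107583833-107612806), whose product acts mainly through neuropilin 2, measured 0.77 and 0.66 after sham operation and -0.57 and -0.67 after injury. The replicates of *Sema3f* lay 0.11 apart in both groups, and the difference was -1.33 (SE 0.14, limma adjusted p = 0.0285). *Sema3d* differed by -1.46 (SE 0.19, limma adjusted p = 0.0286).

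The other class 3 members included genes on which the sham libraries disagreed. *Sema3g*, the highest of the class, differed by -0.47 and its groups overlapped, at 1.29 and 0.33 after sham operation and 0.16 and 0.53 after injury. *Sema3c*, chosen after its values were seen, stood at 1.29 in sham replicate 1 and between -0.42 and -0.31 in the other 3 libraries. Without sham replicate 1, the difference of *Sema3c* turned from -0.78 to 0.08 and that of *Sema3g* to 0.01. *Sema3a*, the repellent of sympathetic axons, and *Sema3b*, both also chosen after their values were seen, differed by -0.91 and -0.80 with no overlap between groups. Neither was called (limma adjusted p = 0.0844 and 0.0596). Leaving out libraries moved *Sema3a* between -1.26 and -0.56 and *Sema3b* between -0.99 and -0.61. *Sema3b* and *Sema3f* lie 72.3 kb apart on chromosome 9 with 3 protein-coding genes between them, and *Sema3d* and *Sema3a* lie 537 kb apart on chromosome 5.

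*Slit2* and *Slit3*, secreted repellents that also guide endothelial cells, differed by -0.81 and -0.85. *Slit2* measured -0.16 and 0.39 after sham operation and -0.55 and -0.84 after injury. *Slit3* measured 0.58 and 0.42 after sham operation and -0.68 and -0.01 after injury. Neither gene had overlapping groups, and neither was called (limma adjusted p = 0.0874 and 0.0926). Leaving out libraries moved *Slit2* between -1.09 and -0.54 and *Slit3* between -1.18 and -0.51, and *Slit3* was called without injury replicate 2. The microRNA genes *Mir218-1* and *Mir218-2* lie within *Slit2* and *Slit3* on the same strand and were not analysed here.

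**Figure D2:**
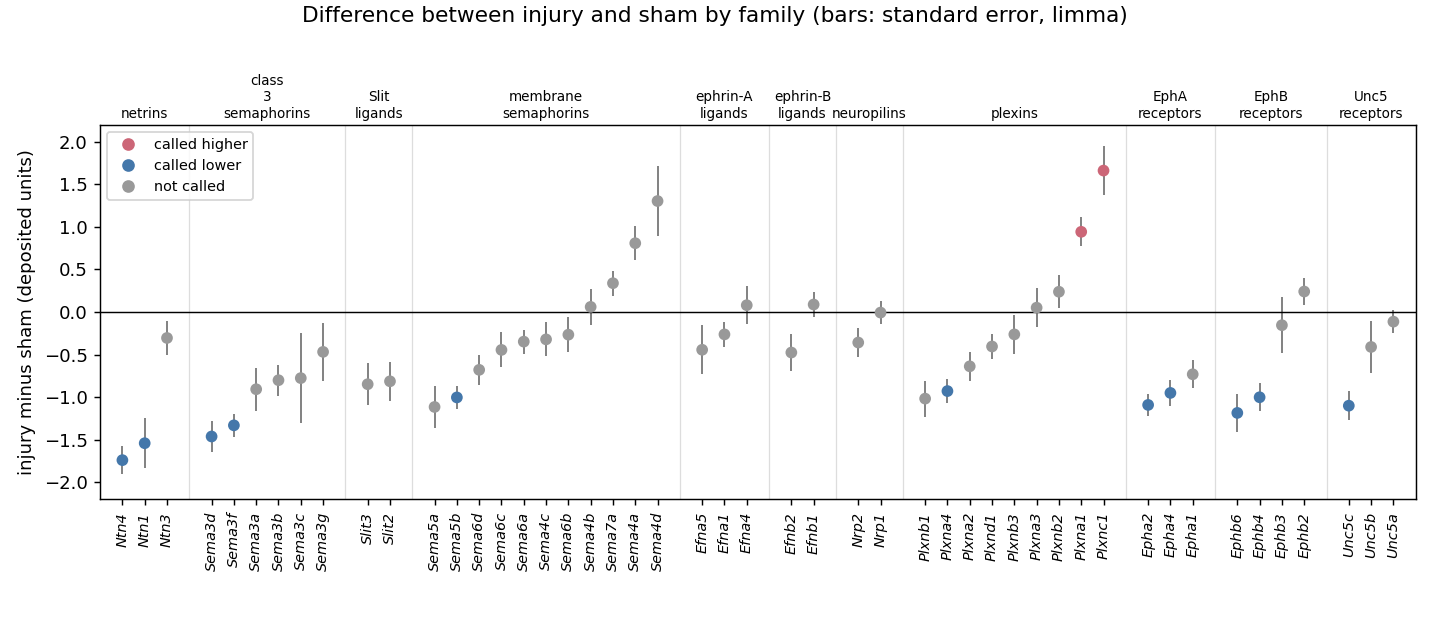
Difference between the injury and sham means in deposited units for the 48 guidance genes, grouped by family, with bars for the limma standard error; blue points are called lower, red points called higher and grey points not called at a limma adjusted p-value under 0.05. The points of netrins, class 3 semaphorins, Slits, EphA receptors, Unc5 receptors and neuropilins all lie below 0, with *Nrp1* at -0.01. Plexins spread from -1.02 (*Plxnb1*) to 1.66 (*Plxnc1*).

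Membrane-bound ligands had means on either side of those in the sham group. Of the 16, 10 had lower and 6 had higher means after injury, with a median difference of -0.29. Only 1 was called, lower (6.25%, near the 7.43% of all genes called in either direction). This gene was *Sema5b*, whose product carries thrombospondin repeats beside its semaphorin domain. It measured 0.33 and 0.40 after sham operation and -0.62 and -0.65 after injury, a difference of -1.0 (SE 0.13, limma adjusted p = 0.0291). Replicates of *Sema5b* differed by 0.07 and 0.04 in the sham and injury groups. Its relative *Sema5a* differed by -1.12 with wider replicates, at 0.66 and 0.29 against -0.92 and -0.36, and was not called (limma adjusted p = 0.0540), whereas the fit lacking injury replicate 2 called it.

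Class 4 semaphorins act on B cells, T cells and platelets as well as on axons. Of the 4 class 4 genes, 3 had higher means after injury and none was called with limma (2 at an unadjusted p-value under 0.05). Among the 3, *Sema4b*, chosen after its values were seen, differed by 0.06 with overlapping groups and ranged from -0.20 to 0.32 when libraries were left out. Both class 5 genes and all 4 class 6 genes had lower means, and a difference between classes was not tested. *Sema4d*, the ligand of plexin B1, measured -0.38 and -0.62 after sham operation and 1.44 and 0.17 after injury. The groups did not overlap, but injury replicate 1 was 1.3 above injury replicate 2, and the difference of 1.30 (SE 0.41) was not called (limma adjusted p = 0.111). Leaving out libraries moved the difference of *Sema4d* between 0.67 and 1.94, and it was called without injury replicate 2. *Sema4a*, chosen after its values were seen, differed by 0.81 (limma adjusted p = 0.0664) and was also called without that library. *Sema7a*, the ligand of plexin C1, differed by 0.34 (limma adjusted p = 0.192), with 0.07 in both sham libraries and 0.30 and 0.51 in the injury libraries.

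None of the 5 ephrins was called with limma, and none had an unadjusted p-value under 0.05. Their differences ran from -0.48 (*Efnb2*) to 0.09 (*Efnb1*). *Efnb2*, the arterial ephrin, measured 0.91 and 0.33 after sham operation and 0.10 and 0.18 after injury, with no overlap between groups (limma adjusted p = 0.218). Leaving out sham replicate 1 moved this difference to -0.19, and leaving out sham replicate 2 to -0.77. *Efnb1* lay between 0.68 and 0.88 in all 4 libraries. Among the A-type ephrins, *Efna5* was the lowest at -0.44 (from -0.80 to -0.09 with libraries left out) and *Efna4* the highest at 0.08, and in both the groups overlapped.

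Receptors contained the members that rose and 6 of those that fell. Of the 21, 16 had lower and 5 had higher means after injury, with a median difference of -0.41. Limma called 8 of them (38.1%, beside 7.43% of all genes).

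Among the 7 Eph receptors, 4 were called lower (57.1%, beside 3.67% of all genes) and 0 higher (beside 3.76% of all genes). *Epha2*, a receptor of epithelium and endothelium, measured 0.69 and 0.64 after sham operation and -0.40 and -0.46 after injury. The replicates of *Epha2* lay 0.05 and 0.06 apart, and the difference was -1.09 (SE 0.13, limma adjusted p = 0.0285). *Epha4*, which binds ephrins of both types, measured 0.65 and 0.85 after sham operation and -0.13 and -0.27 after injury, a difference of -0.95 (limma adjusted p = 0.0317). *Epha1*, the remaining A-type receptor, differed by -0.73 with no overlap (limma adjusted p = 0.0587), and it overlaps *Zyx* on the opposite strand.

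Of the B-type receptors, *Ephb4*, the venous partner of ephrin-B2, measured 0.63 and 0.78 after sham operation and -0.45 and -0.14 after injury, a difference of -1.0 (SE 0.17, limma adjusted p = 0.0339). *Ephb6*, which lacks kinase activity, measured 0.47 and 0.72 after sham operation and -0.85 and -0.33 after injury, a difference of -1.19 (SE 0.22, limma adjusted p = 0.0411). In both genes the groups were well apart, and the injury libraries differed more than the sham libraries did. *Ephb2* was the highest of the type, at 0.24 (0.11 to 0.37 with libraries left out), and was not called (limma adjusted p = 0.360).

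The windows of *Epha2* and *Ephb4* are shown as those of the Eph receptors best known from the vessel wall. They lie in GRCm38.p6 on the plus strand at chr4:141300971-141301220 and chr5:137349859-137350108, and capitals mark the GC box letters on either strand.
Epha2: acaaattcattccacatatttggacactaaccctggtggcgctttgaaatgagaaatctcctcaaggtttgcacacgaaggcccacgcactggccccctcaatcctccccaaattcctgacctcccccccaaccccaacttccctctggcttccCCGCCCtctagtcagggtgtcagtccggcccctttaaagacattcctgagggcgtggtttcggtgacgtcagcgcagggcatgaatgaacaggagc
Ephb4: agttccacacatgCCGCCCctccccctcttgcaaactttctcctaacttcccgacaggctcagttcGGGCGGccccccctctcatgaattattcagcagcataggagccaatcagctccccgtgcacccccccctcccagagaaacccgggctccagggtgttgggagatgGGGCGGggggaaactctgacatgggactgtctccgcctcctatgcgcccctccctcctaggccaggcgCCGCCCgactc
The *Epha2* window holds 1 GC box, 96 bases before the start, and the *Ephb4* window holds 4. GC content was 55.6% and 64.0%, with 9 and 12 CpG dinucleotides.

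Of the 9 plexins, the semaphorin receptors, *Plxnc1* and *Plxna1* were called higher and *Plxna4* was called lower. *Plxna1* (mm9 chr6:89266310-89312607) measured -0.37 and -0.36 after sham operation and 0.76 and 0.39 after injury, a difference of 0.94 (SE 0.17, limma adjusted p = 0.0406). *Plxna4*, a plexin of sympathetic and sensory neurons, measured 0.67 and 0.60 after sham operation and -0.37 and -0.22 after injury, a difference of -0.93 (SE 0.14, limma adjusted p = 0.0306). These A-type plexins thus moved in opposite directions with no overlap between groups in either. *Plxna2* differed by -0.64 (limma adjusted p = 0.0810) and *Plxna3* by 0.05, with overlapping groups in *Plxna3*. *Plxna4os1*, the antisense row of *Plxna4*, differed by 0.10 and its groups overlapped.

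*Plxnb1*, the plexin bound by *Sema4d*, measured 0.76 and 0.36 after sham operation and -0.65 and -0.27 after injury. Its difference of -1.02 (SE 0.21) lay just outside the threshold (limma adjusted p = 0.0504), and it was called without injury replicate 2. *Plxnd1*, a plexin of endothelium, differed by -0.41 with no overlap (limma adjusted p = 0.150).

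Neuropilins were not called. *Nrp1* was the member with the smallest difference, at 0.18 and 0.13 after sham operation and 0.17 and 0.12 after injury. Its difference of -0.01 (SE 0.13) changed sign when the columns were scaled to one spread or quantile normalized. *Nrp2* differed by -0.36 with no overlap between groups (limma adjusted p = 0.216), and by -0.51 to -0.21 with libraries left out. Thus *Sema3f* and *Sema3d* were called lower while the neuropilin rows were not, and the differences between ligands and receptors were not tested.

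Among the netrin receptors, *Unc5c* was called lower. It measured 0.64 and 0.39 after sham operation and -0.70 and -0.46 after injury, a difference of -1.10 (SE 0.17, limma adjusted p = 0.0308). *Unc5b*, the member of endothelium and macrophages, measured 0.84 and 0.22 after sham operation and 0.46 and -0.21 after injury. The groups overlapped in *Unc5b*, and its difference was -0.41 (limma adjusted p = 0.419), moving between -0.75 and -0.08 when libraries were left out. *Unc5a* differed by -0.11 (from -0.17 to -0.06 with libraries left out) and overlaps *Hk3* on the opposite strand.

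The 16 members outside the named genes, with *Unc50* and *Plxna4os1* among them, had differences from -0.91 (*Sema3a*) to 0.81 (*Sema4a*) and none was called.

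**Figure D3:**
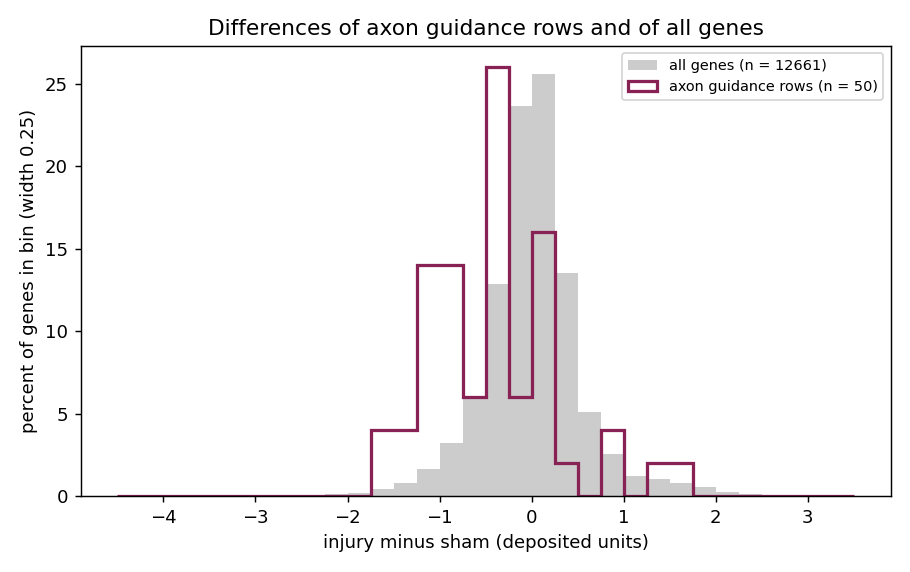
Percent of genes in bins of 0.25 deposited units of the difference between injury and sham means, for all 12661 genes (grey) and the 50 guidance rows (outline). The median over all genes is 0.01 and that over the guidance rows is -0.43, and 5 guidance rows lie above 0.25.

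Downstream of these receptors, calls were few and went in both directions. Of 103 further genes listed as co-receptors of netrin and repulsive guidance molecules or as signal transducers of semaphorins, ephrins and Slits, 90 had a row and 8 were called (8.89%, beside 7.43% of all genes), 4 higher and 4 lower, with a median difference of -0.23. At an unadjusted p-value under 0.05 there were 40 of the 90, beside 3739 of the 12661 genes. *Vav1*, the guanine nucleotide exchange factor of blood cells, differed by 2.27, *Cxcr4*, the CXCL12 receptor, by 2.03, and *Rac2*, the Rac GTPase of blood cells, by 1.49. *Sdc3*, a heparan sulfate proteoglycan, differed by 1.23. In the other direction, *Kalrn*, an exchange factor in Eph signaling, differed by -1.17 and *Farp1*, an exchange factor bound by plexin A4, by -0.89. The groups did not overlap in these 6 genes, which were picked as called and by size of difference. Over the 90 genes, 65 had no overlap between groups (72.2%, beside 61.9% of all genes). Of the 17 listed co-receptors of netrin and repulsive guidance molecules, 8 had a row. None of these 8 was called with limma, and 2 had an unadjusted p-value under 0.05.

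Markers of several cell types also differed between the groups. For comparison, 3.67% of all genes were called lower and 3.76% higher. Smooth muscle and pericyte markers summed to 10.6 to 16.2 in the sham libraries and -11.1 to -0.766 in the injury libraries, and 6 of 14 were called lower. Endothelial markers, of which 4 of 16 were called lower, summed to 9.82 to 10.1 and -2.44 to -0.254. Lymphatic markers, with 3 of 6 called lower, summed to 0.451 to 3.45 and -4.73 to -3.62. *Pdpn* alone in this list had a higher mean after injury, by 0.71. Fibroblast and progenitor markers, with 5 of 12 called lower, summed to -0.762 to 2.65 and -7.58 to -3.62. The groups overlapped in 5 of these 12, and *Pdgfra* alone had a higher mean, by 0.41.

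In the other direction, macrophage and monocyte markers summed to -14.1 to -13.8 in the sham libraries and -0.609 to 6.94 in the injury libraries, and 8 of 13 were called higher. Neutrophil markers summed to -7.73 to -5.66 and 0.336 to 8.08, and 1 of 6 was called higher. In every one of these 6 lists the sums of the groups did not overlap. Schwann cell and nerve markers summed to -0.649 to 1.70 and -5.32 to -2.06, and of the 11 with a row 2 were called lower and 1 higher. Neuron markers had a row for 3 of 12, skeletal muscle for 7 of 12, lymphocytes for 3 of 10, epithelium for 1 of 8 and proliferation for 8 of 8. In these 5 lists limma called 0 genes. An unadjusted p-value under 0.05 was found for 1, 4, 0, 0 and 1 of them, beside 3739 of all 12661 genes. Skeletal muscle markers were lower in 7 of 7 and summed to -0.522 to 4.73 in the sham libraries and -3.14 to -2.06 in the injury libraries. The 3 neuron markers summed to -0.187 to -0.123 and -1.28 to -1.19, and neither list overlapped between groups. For adipocytes the sums were 2.28 to 4.0 in the sham libraries and -1.72 to 3.09 in the injury libraries. The values have no true zero, so the absence of a cell type cannot be read from them, and the part of these cell types in the guidance gene differences was not tested.

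**Figure D4:**
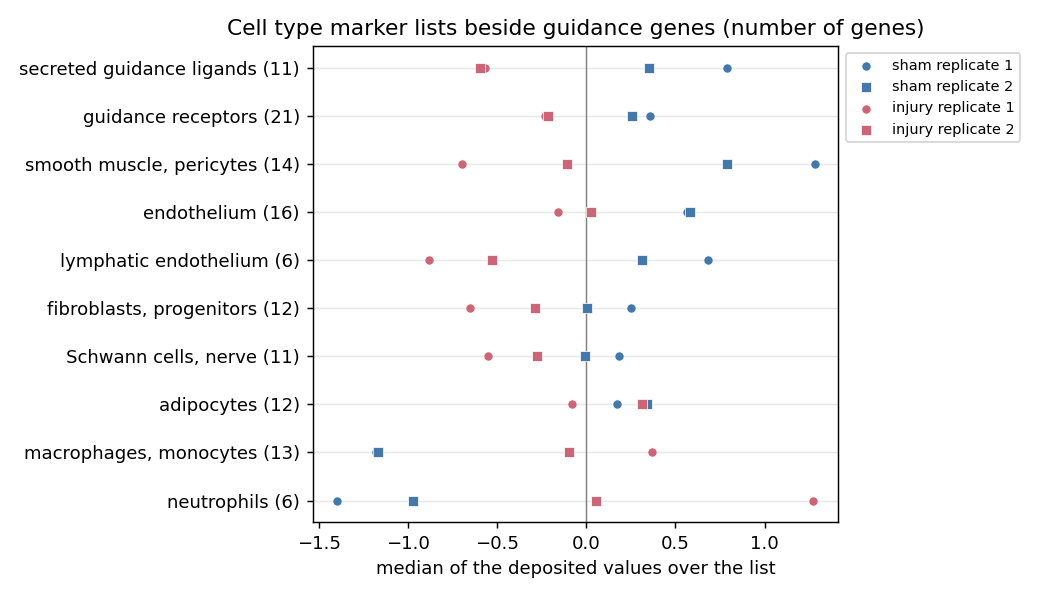
Median of the deposited values over each list in the 4 libraries, for the secreted guidance ligands, the guidance receptors and 8 lists of cell type markers, with the number of genes in parentheses; blue symbols are sham and red symbols injury libraries. Secreted ligands and receptors have the order of the smooth muscle, endothelial, lymphatic, fibroblast and Schwann cell lists, sham above injury. Macrophage and neutrophil lists have the reverse order, and the groups overlap in the adipocyte list.

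The injury libraries did not differ from sham to the same extent. In 9 of the 13 called members, injury replicate 1 lay farther from the sham mean than injury replicate 2. Injury replicate 1 was likewise the farther library in the sums of the smooth muscle, endothelial, lymphatic, fibroblast, macrophage and neutrophil markers. Over all members the median distance between replicates was 0.19 in the sham group and 0.28 in the injury group, beside 0.16 and 0.19 over all genes.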

How the data were processed

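For each library the authors took 480 ng of RNA through a strand-specific kit for polyadenylated transcripts and read paired ends of 150 bp. Per the labels and the methods, reads were checked with FastQC 0.11.8, trimmed with cutadapt 1.18 and Trimmomatic 0.39, aligned to mm9 with STAR 2.6.0a, counted with featureCounts and compared with DESeq2 1.28.0 in R 3.6.0. The values the authors deposited are signed scores on a log-like scale; how they were made from counts, the base, the centre and the filter that left 12661 genes are not given in the sources used here. Depth is therefore unknown, and no filter, interval or fold change was applied or computed. Such values cannot be given to a count model.

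Groups were compared with limma 3.58.1 in R 4.3.3 (lmFit and eBayes, group as the only term, all 4 libraries, two-sided, Benjamini-Hochberg over 12661 genes, threshold 0.05). Residual degrees of freedom were 2 and prior degrees of freedom 3.48. An exact permutation test of 2 against 2 libraries cannot go below p = 0.333, and none was used. The fit was also run on simulated data, 20 runs of 12661 genes, with few genes changed and variances drawn from the prior. There 91.0% of the 2-unit changes and 20.8% of the 1-unit changes put in passed the threshold. On average 6.45 unchanged genes per run also passed. The share of changed genes in the deposited data is unknown, so these rates cannot be carried over to them. The members and lists were chosen with earlier results of these data known. Named members were all called members, the highest and lowest of each family, the neuropilins and the listed partners of called genes, 34 in all, and called pathway genes, up to 6 by size of difference.

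Gene coordinates are from GENCODE vM1 on NCBIM37, the assembly of mm9, and 48 of 50 members matched. Promoter windows are from RefSeq, GRCm38.p6. No protein sequence was used here. Each library was left out in turn, and further alternatives were a threshold of 0.1, a replicate block, a robust prior for the variance, quantile normalization, scaling of the columns to equal spread and counting the 28 rows with identical values only once per set. Tables and plots were made with pandas 2.3.3, numpy 2.4.6 and matplotlib 3.10.9 in Python 3.11.15.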

Additional observations from a re-analysis of the deposited data

How the results depend on the processing

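A threshold of 0.1 gave 23 members called, 20 of them lower, and 20 pathway genes called. When libraries were left out 1 at a time, limma called between 0 and 18 members, between 0 and 14 lower, between 0 and 4 higher and between 0 and 15 pathway genes, and the median difference ran from -0.569 to -0.292. With a replicate block, 9 members and 684 of all genes were called (941 without it), 0 of the members higher and 9 lower; *Epha4*, *Ntn1*, *Plxna1* and *Plxnc1* were not. Same-numbered libraries had a correlation of -0.094 in their deviations from the group means across genes, so they share only a number. Quantile normalization and columns scaled to one spread each called 17 members, the 13 and *Epha1*, *Plxnb1*, *Sema3b* and *Sema5a*, and 1061 and 1140 of all genes; the cause was not tested. A robust variance prior and identical rows counted once each kept all 13. Among named members, the sign changed for *Nrp1* (0.00375 with quantile normalization, 0.00806 with one spread). Leaving out libraries gave differences from -0.193 to 0.353 for *Efna4*, from -0.00497 to 0.181 for *Efnb1*, from -0.0331 to 0.0195 for *Nrp1*, from -0.248 to 0.350 for *Plxna3* and from -0.950 to 0.0126 for *Sema3g*.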
